A study of Mus musculus with 6 samples.

Results

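Adult striatal astrocytes fell into 4 sub-clusters in the annotation that the authors deposited, and sub-clusters 13 and 16, which the study set with non-telencephalic reference astrocytes, were compared here with sub-clusters 7 and 14, the end of its main astrocyte lineage. Members were chosen by that annotation alone: cells of the 3-month libraries in sub-clusters 13 or 16 against those in sub-clusters 7 or 14. This gave 323 cells of sub-clusters 13 and 16 (202 and 121) and 788 of sub-clusters 7 and 14 (604 and 184), which is 1111 of the 1118 astroglial cells at 3 months and of 14373 annotated cells in all. All came from wild-type male C57BL/6 mice (C57BL/6Jax in the methods) with no treatment. Striatum was dissected at 3 months without the subventricular zone, pooled over several animals per preparation, and enriched with magnetic beads against ACSA2, an astrocyte surface antigen, before 10x Genomics single-cell RNA sequencing. There were 3 independent adult preparations, named replicates 1 to 3, and 3 at postnatal day 3 (P3), which enter at the end.

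Astrocytes are born in each region of the brain from local progenitors and keep part of the transcription factor code of that region. In the telencephalon, which holds cortex and striatum, this code includes LHX2, EMX2 and NR2E1. Astrocytes of the thalamus, midbrain, brainstem and spinal cord are known for other genes, among them those for angiotensinogen, the GABA transporter GAT-3 and the glycine transporter GLYT1, and for homeodomain factors of the NKX, IRX, EN and HOX families.

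The sides were very uneven between libraries. Sub-clusters 13 and 16 held 17 of 213 cells in replicate 1 (8.0%, 95% Wilson interval 5.0 to 12.4), 257 of 540 in replicate 2 (47.6%, 43.4 to 51.8) and 49 of 358 in replicate 3 (13.7%, 10.5 to 17.6), so the shares differed by more than their counting error. Replicate 1 gave only 3 cells of sub-cluster 13, and 182 of the 184 cells of sub-cluster 14 came from replicate 1. Unique molecular identifiers (UMIs, 1 per captured transcript) were summed per library and side, to 61425, 856573 and 228578 for sub-clusters 13 and 16 and to 1096060, 965527 and 1242120 for sub-clusters 7 and 14. Levels are given as CPM, UMIs per 1000000 of that sum. A single UMI was worth 16.3, 1.17 and 4.37 CPM on the first side and 0.805 to 1.04 on the second, so low values of replicate 1 were coarse. Libraries of replicates 1 and 2 shared 1 cell barcode among these cells.

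Genes known from astrocytes outside the telencephalon were far higher in sub-clusters 13 and 16. *Agt*, which encodes angiotensinogen, had 912, 962 and 774 CPM in replicates 1 to 3 against 59.3, 74.6 and 47.5 in sub-clusters 7 and 14. Every library of the first side lay more than 10 times above every library of the second (31.8% of all genes tested showed no overlap of the sides). The log2 fold change was 3.88 ± 0.24 (SE from the fit, n = 3 libraries with both sides, edgeR quasi-likelihood test, adjusted p = 1.04e-10). *Slc6a11*, the gene for the GABA transporter GAT-3, stood at 1644, 1446 and 1111 CPM against 268, 209 and 218, a log2 change of 2.59 ± 0.23 (adjusted p = 1.33e-08). *Slc6a9*, which encodes the glycine transporter GLYT1, read 260, 187 and 227 CPM against 42.0, 20.7 and 30.6, or 2.92 ± 0.24 on the log2 scale. Both transporter genes were thus separated in each library with no overlap. *Itih3*, for a heavy chain of the hyaluronan-binding inter-alpha-trypsin inhibitors, gave 537, 501 and 516 CPM against 52.9, 47.6 and 41.9 (3.46 ± 0.23). *Sparc*, for a matricellular protein, gave 1758, 2365 and 1256 CPM against 110, 231 and 174 (3.38 ± 0.25). Of the 8 genes listed as non-telencephalic astrocyte markers these 5 were tested and all 5 rose, with a median log2 change of 3.38 against -0.03 over all genes tested, of which 5.55% were called higher. The other 3, *Irx2*, *Irx3* and *Irx5*, had too few UMIs to test. A call here needs an adjusted p of at most 0.05 and a change of at least 1 on the log2 scale.

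Genes of the telencephalic code were lower, but not all of them. *Lhx2*, for a LIM-homeodomain factor of the forebrain, had 65.1, 30.4 and 39.4 CPM against 250, 260 and 229, a log2 change of -2.75 ± 0.28 (adjusted p = 1.28e-07). *Emx2*, a homeobox gene of the dorsal forebrain, had 16.3, 11.7 and 39.4 CPM against 52.9, 66.3 and 70.8 (-1.77 ± 0.38, adjusted p = 0.00178). *Nr2e1*, for the nuclear receptor TLX, had 16.3, 23.3 and 30.6 CPM against 67.5, 78.7 and 68.4 (-1.56 ± 0.33). In each of these 3 genes the highest library of sub-clusters 13 and 16 stayed below the lowest of sub-clusters 7 and 14. *Fezf2*, for a forebrain zinc-finger factor, was at 0, 1.17 and 4.37 CPM against 36.5, 19.7 and 33.0 (-3.58 ± 0.74). These 4 were called lower among 6 tested members of the 13 telencephalic patterning factors (median -1.67), where 3.45% of all genes were. The calls of *Emx2*, *Fezf2* and *Nr2e1* were lost without replicate 2 (adjusted p = 0.552, 0.146 and 0.356), and that of *Lhx2* was not.

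*Six3*, an anterior forebrain homeobox gene, overlapped between the sides, with 48.8, 65.4 and 96.2 CPM against 55.7, 104 and 51.5 (-0.08 ± 0.30, adjusted p = 0.926). *Mfge8*, for a secreted factor of phagocytosis that is high in telencephalic astrocytes, had 521, 720 and 512 CPM against 1431, 1064 and 948, a change of -0.92 ± 0.24 that missed the fold threshold (adjusted p = 0.00963). It was called lower in sub-cluster 13 alone (-1.03) and in sub-cluster 16 alone (-1.43).

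Patterning factors of diencephalon, midbrain and hindbrain were mostly undetected. Of 42 listed genes, 32 had no UMI in sub-clusters 13 and 16, and the 7 that were seen but could not be tested held 26 UMIs in all, against 9 in sub-clusters 7 and 14. *Nkx2-2*, a ventral homeodomain gene, had 81.4, 37.4 and 48.1 CPM against 6.39, 10.4 and 8.86 (2.41 ± 0.45, adjusted p = 4.94e-04). *Nkx6-2*, also ventral and used by glia, had 147, 267 and 122 CPM against 10.0, 50.7 and 21.7 (2.63 ± 0.26). These 2 of 3 tested members rose, while *Tcf7l2*, a thalamic and Wnt-pathway factor gene, had 97.7, 139 and 105 CPM against 142, 135 and 117 (-0.08 ± 0.23, adjusted p = 0.891). The 5 astrocyte markers, *Lhx2* and the *Nkx* genes thus differed in the direction of the non-telencephalic label, and *Six3* did not. The study placed these sub-clusters by the expression of the same cells, so this is no independent test of the label. The sides are named by their sub-cluster numbers.

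**Figure D1:**
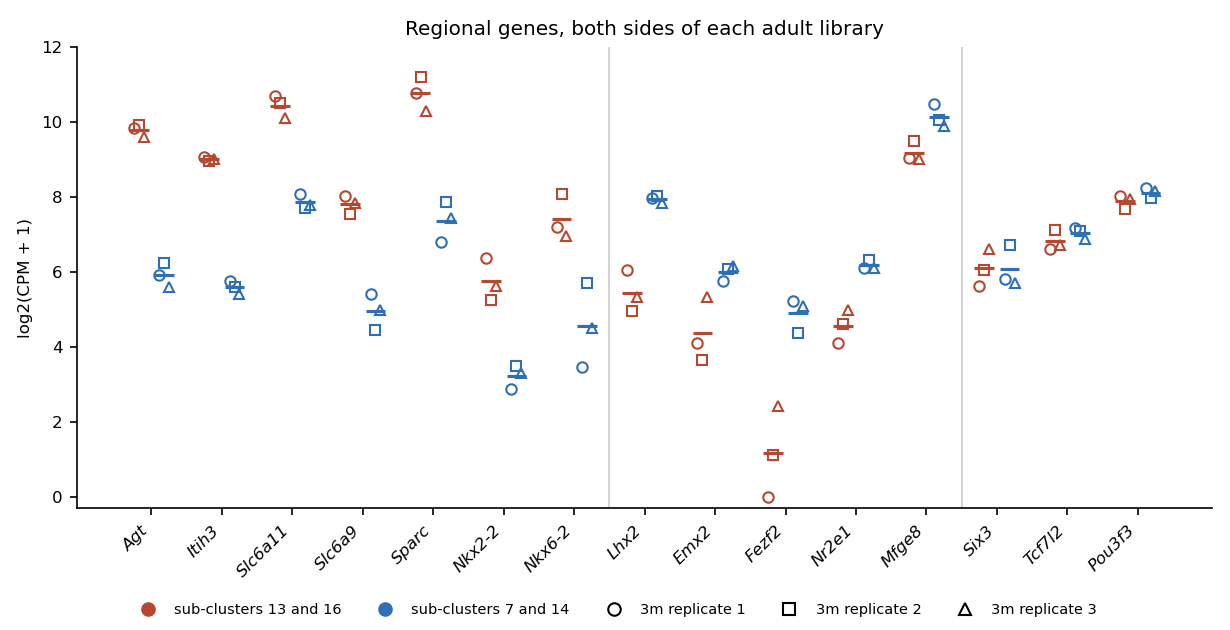
Level of 15 regional genes on each side of the 3 adult libraries, as log2(CPM + 1); red points are sub-clusters 13 and 16, blue points sub-clusters 7 and 14, marker shape gives the replicate and bars are means of the 3 log values. The sides did not overlap for the 12 genes left of the second grey line, from *Agt* at 774 CPM or more against 74.6 or less to *Mfge8*, and overlapped for *Six3*, *Tcf7l2* and *Pou3f3*.

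Sequence just before the start of 3 of these genes is shown because *Agt* and *Slc6a11* stood above and *Lhx2* below in sub-clusters 13 and 16, and because the RefSeq start of each lies at the gene start of the annotation. The windows are 250 bases before the start from RefSeq on GRCm38.p6, 5′ to 3′ on the strand of the gene, with capitals for a motif match. *Agt* lies on chromosome 8 from 124556534 to 124569706 on the minus strand and its window is chr8:124569707-124569956. *Slc6a11* lies on chromosome 6 from 114131241 to 114249952 on the plus strand, after chr6:114130991-114131240. *Lhx2* lies on chromosome 2 from 38339281 to 38369733 on the plus strand, after chr2:38339031-38339280.
Agt: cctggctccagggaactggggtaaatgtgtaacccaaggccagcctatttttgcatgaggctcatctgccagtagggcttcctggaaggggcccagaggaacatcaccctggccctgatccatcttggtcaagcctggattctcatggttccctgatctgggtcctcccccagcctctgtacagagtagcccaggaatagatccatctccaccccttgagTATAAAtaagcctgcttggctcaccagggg
Slc6a11: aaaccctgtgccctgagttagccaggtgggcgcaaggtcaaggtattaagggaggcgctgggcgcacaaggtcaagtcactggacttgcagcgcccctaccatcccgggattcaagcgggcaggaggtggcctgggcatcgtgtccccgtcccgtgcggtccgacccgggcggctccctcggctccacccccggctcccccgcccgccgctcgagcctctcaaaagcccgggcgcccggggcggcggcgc
Lhx2: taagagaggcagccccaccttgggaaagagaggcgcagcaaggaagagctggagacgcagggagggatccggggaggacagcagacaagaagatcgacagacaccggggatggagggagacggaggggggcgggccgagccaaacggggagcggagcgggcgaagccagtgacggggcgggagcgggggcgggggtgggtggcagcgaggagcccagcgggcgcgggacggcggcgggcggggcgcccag
The motifs searched on both strands were TATAAA (the TATA box), CCAAT (the CCAAT box), CAGCTG (an E box), GACCACCCA (bound by GLI factors) and TAATTA (bound by homeodomain proteins), which 12.4%, 33.9%, 13%, 0.225% and 4.84% of 32851 RefSeq windows of this length held. The *Agt* window held TATAAA, with its first base at -30, and the other 2 held none of the 5. Base composition differed, with 55.6% G and C for *Agt*, 71.2% for *Slc6a11* and 72.8% for *Lhx2*. A match describes these letters and does not show that a factor binds there.

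Across the transcriptome 7787 genes were tested and 701 (9.0%) were called, 432 higher (5.55%) and 269 lower (3.45%) in sub-clusters 13 and 16. Sub-clusters had been made from the expression of these same cells, so a call says that a difference exceeded the spread between libraries, not that the groups were found independently of it. As a check, cells were clustered anew on a random part of their UMIs and tested on the rest. Each new cluster was given the side that most of its cells had in the annotation. That annotation used all UMIs, so the match is partly built in and the tested part was not fully independent of the sides. The new sides matched the annotation for 1049 of 1111 cells (94.4%), 478 of 5556 genes (8.60%) were called, and of 587 calls that could be tested again 403 were called the same way and 0 the opposite way. Replicate 2 held 257 of the 323 cells of sub-clusters 13 and 16, and without it the calls fell to 217 (187 higher and 30 lower). Against sub-cluster 14 alone, nearly all from replicate 1, 40 of 2134 genes were called, all of them higher. A negative change with an unadjusted p of at most 0.05 was seen in 22. This fit used only replicates 1 and 3, with 2 cells of sub-cluster 14 in the latter, so its lack of lower calls says little.

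**Figure D2:**
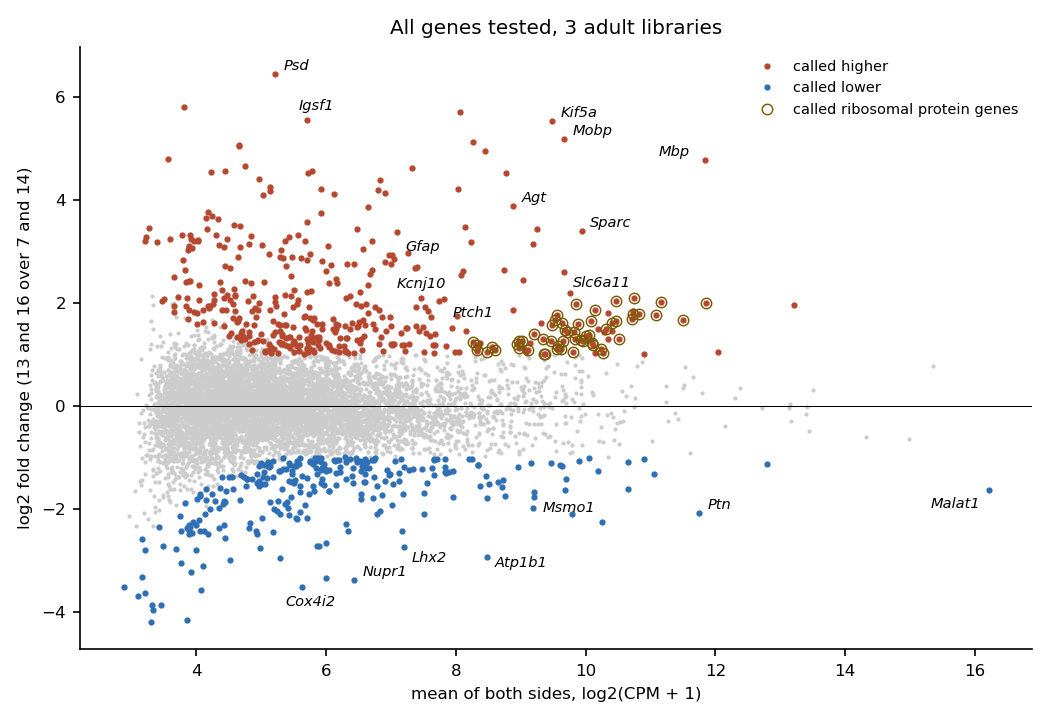
All 7787 genes tested between sub-clusters 13 and 16 and sub-clusters 7 and 14, each point 1 gene; the x axis is the mean level of both sides as log2(CPM + 1) and the y axis the log2 fold change, red for called higher, blue for called lower, grey for no call and ringed for cytosolic ribosomal protein genes called higher. The 54 ringed genes lie between 1.01 and 2.10 at high levels, and *Agt*, *Sparc* and *Slc6a11* lie well above it.

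Sub-clusters 13 and 16 were not alike. By its gene sets of immature and mature astrocytes, the study also described sub-cluster 16 as closer to early postnatal astrocytes. Cells of sub-cluster 16 had a median of 1688 UMIs, against 3630 in sub-cluster 13, 3558 in sub-cluster 7 and 5582 in sub-cluster 14. *Malat1*, a long non-coding RNA of the nucleus, had 4785, 6225 and 6718 CPM in sub-cluster 16 and 8880, 73416 and 84948 in sub-cluster 13, and 98215 over all libraries in sub-cluster 7. Its median share of UMIs was low in replicate 1, at 0.618% in the 3 cells of sub-cluster 13 and 0.268% in the 14 cells of sub-cluster 7, although the latter summed to 71474 CPM. It took under 3% of UMIs in 117 of the 121 cells of sub-cluster 16, and in 63 of 202, 155 of 604 and 13 of 184 cells of sub-clusters 13, 7 and 14. *Mbp*, for myelin basic protein, had 25799, 9436 and 11097 CPM in sub-cluster 16 and 2046, 792 and 466 in sub-cluster 13, against 4725 in oligodendrocytes. *Mog* and *Mag*, which encode myelin proteins of the oligodendrocyte surface, had 40.2 and 56.3 CPM in sub-cluster 16 against 1448 and 1944 in oligodendrocytes. *Kif5a*, for a kinesin that moves cargo along axons and processes, had 4161, 2872 and 3119 CPM in sub-cluster 16, 871, 241 and 71.7 in sub-cluster 13 and 92.5 in oligodendrocytes. Myelin RNA was thus high in sub-cluster 16 with unequal members: *Mbp* stood above its oligodendrocyte level, *Mog* and *Mag* far below.

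Astrocyte genes were partly lower in sub-cluster 16. Of 8 astrocyte markers tested against sub-clusters 7 and 14, 4 were called lower (*Gja1*, *Sox9*, *Slc1a3* and *Aqp4*, at -2.08 to -1.12) and *Gfap* higher, with a median of -1.05, where 7.21% of genes were called lower and the median gene changed by -0.29. Their sum was 10930 CPM over all libraries, below the 16616 of the oligodendrocyte markers in the same cells, whereas sub-cluster 13 had 14701 and 1733. Over all libraries *Slc1a2*, the main glutamate transporter gene, had 5634 CPM in sub-cluster 16 and 4816 in sub-cluster 13, and *Aldoc*, a glycolytic enzyme gene of astrocytes, had 2940 and 3712. *Gja1*, for the gap junction protein connexin 43, fell to 286, 481 and 90.0 CPM in sub-cluster 16 from 2002, 1717 and 1644 in sub-cluster 13 (-2.35 ± 0.33, edgeR adjusted p = 1.49e-11). *Sox9*, the astroglial factor gene, had 182, 147 and 150 CPM against 348, 518 and 456 (-1.41 ± 0.39). In that comparison 462 of 1430 genes tested were called (32.3%). *Agt* was also lower in sub-cluster 16, at 286, 305 and 30.0 CPM against 1959, 1133 and 901 (-2.32, adjusted p = 1.67e-10). Cells with at least 1 *Agt* UMI made up 92.1% of sub-cluster 13, 30.6% of sub-cluster 16, 15.9% of sub-cluster 7, 21.2% of sub-cluster 14 and 2.37% of oligodendrocytes. The median depths of these cells were 3630, 1688, 3558, 5582 and 5420 UMIs in the same order. At 1000 UMIs per cell they were 64.7%, 18.3%, 4.92%, 7.07% and 0.348%, in the same order.

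**Figure D3:**
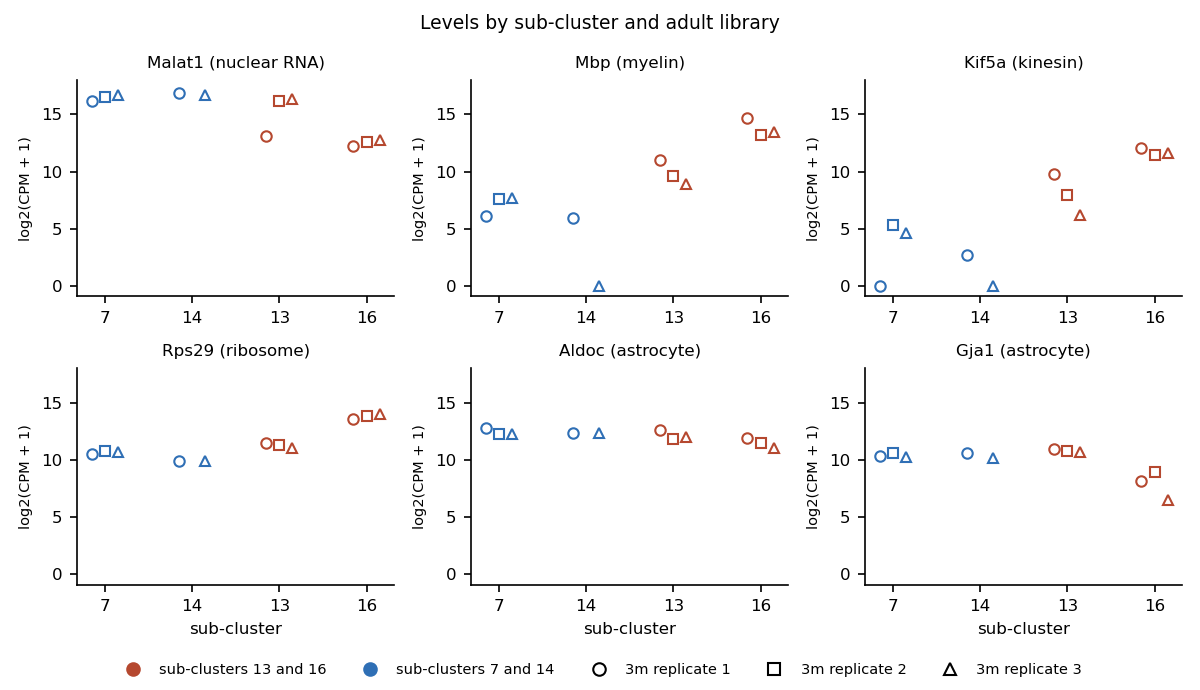
Level of 6 genes in each sub-cluster and adult library as log2(CPM + 1), where the x axis is the sub-cluster number, marker shape the replicate, red sub-clusters 13 and 16 and blue sub-clusters 7 and 14. The summed level of *Malat1* was lowest in sub-cluster 16 and in the 3 cells of sub-cluster 13 of replicate 1, while *Mbp*, *Kif5a* and *Rps29* were highest in sub-cluster 16; sub-cluster 14 had no cell in replicate 2 and 2 cells in replicate 3.

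Fitted apart against the same sub-clusters 7 and 14, sub-cluster 13 gave 516 calls among 7367 genes (7.0%, 266 higher or 3.61%, and 250 lower or 3.39%) and sub-cluster 16 gave 920 among 6023 (15.3%, 486 higher or 8.07%, and 434 lower or 7.21%). Both fits share their comparison cells, so their values are set side by side. *Agt* changed by 4.12 ± 0.23 in sub-cluster 13 and 1.97 ± 0.42 in sub-cluster 16, *Itih3* by 3.69 ± 0.22 and 2.22 ± 0.45, and *Sparc* by 3.49 ± 0.23 and 2.69 ± 0.32. *Lhx2* changed by -3.05 ± 0.31 and -2.15 ± 0.48. These 4 were called in both fits. *Slc6a9* was called in sub-cluster 13 (3.21 ± 0.27) and not in sub-cluster 16 (1.16 ± 0.61, adjusted p = 0.212). Of 80 cytosolic ribosomal protein genes tested, 0 were called in sub-cluster 13 (median 0.11) and 75 were higher in sub-cluster 16 (median 2.41, where 8.07% of genes were called higher and the median gene changed by -0.29). In sub-cluster 13, 6 of the 80 had an unadjusted p of at most 0.05. The list gave 54 calls in the joint comparison by edgeR and 46 by DESeq2. Sub-cluster 16 supplied 62.6%, 20.6% and 14.6% of the UMIs of its side in replicates 1 to 3. *Rps29*, for 1 of these proteins, had 12093, 14762 and 16916 CPM in sub-cluster 16 and 2873, 2491 and 2136 in sub-cluster 13. Of the 432 genes called higher together, 67 were called so in both separate fits, 147 in sub-cluster 13 and not 16, 197 in sub-cluster 16 and not 13, and 21 in neither. Of the 269 called lower, the counts were 111, 100, 31 and 27.

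**Figure D4:**
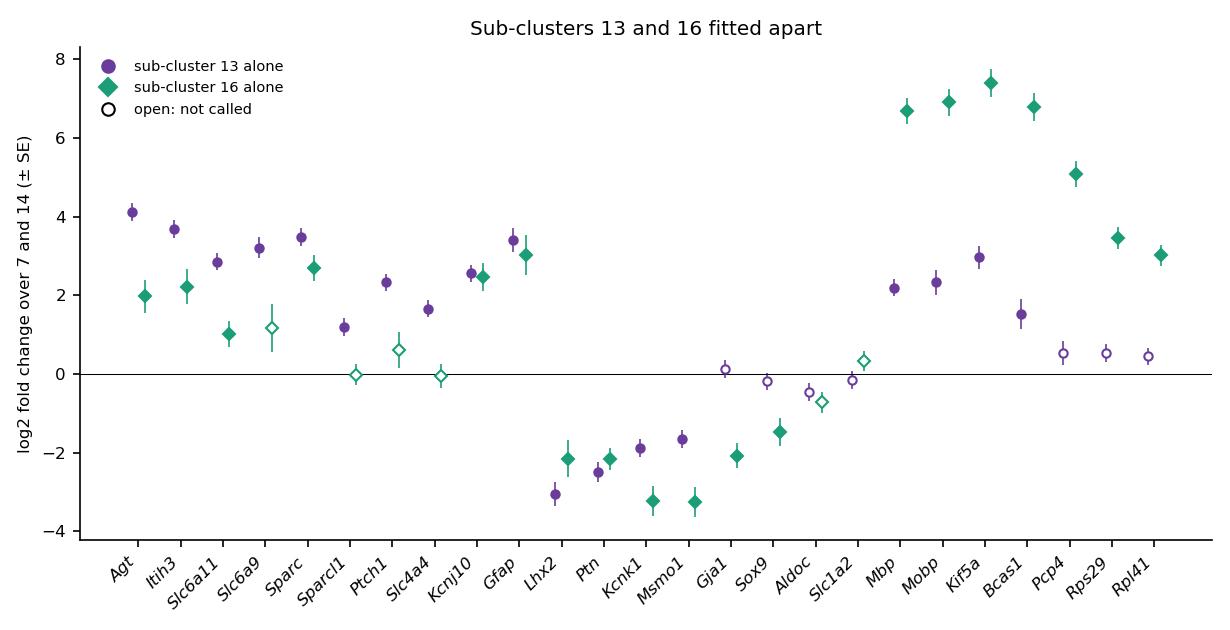
Log2 fold change (± SE from the fit of 3 libraries) of sub-cluster 13 alone (purple circles) and sub-cluster 16 alone (green diamonds) over sub-clusters 7 and 14, with open symbols for genes not called. Regional genes from *Agt* to *Sparc* moved most in sub-cluster 13, *Mbp*, *Mobp*, *Kif5a* and *Bcas1* rose by more than 6 in sub-cluster 16, and *Sparcl1* and *Slc4a4* were called higher in sub-cluster 13 and lay at or below 0 in sub-cluster 16.

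The 12 largest rises among genes without overlap and with a mean of at least 50 CPM on the higher side were mostly larger in sub-cluster 16. *Psd*, for an exchange factor of ARF6, had 147, 33.9 and 35.0 CPM against 0.912, 1.04 and 0, a log2 change of 6.43 ± 0.70 (edgeR adjusted p = 3.04e-07), and sub-cluster 13 had too few UMIs to test it. *Rapgef4*, for the cyclic AMP sensor EPAC2, and *Kif5a* changed by 5.70 and 5.52 together, and by 1.95 and 2.97 in sub-cluster 13 alone. *Kif5c*, *Mobp*, *Bcas1*, *Mbp*, *Arhgdig*, *Trak2* and *Sh3gl3* followed at 4.51 to 5.17. Both remaining genes rose in the fit of sub-cluster 13, with no fitted value in sub-cluster 16 to set beside it. *Igsf1*, for an immunoglobulin superfamily membrane protein, had 130, 100 and 70.0 CPM against 0.912, 3.11 and 1.61 (5.55 ± 0.46, and 5.76 ± 0.49 in sub-cluster 13 alone). *Car14*, for a membrane-bound carbonic anhydrase, had 114, 67.7 and 131 CPM against 1.82, 6.21 and 4.03 (4.55 ± 0.42, and 4.78 ± 0.43 in sub-cluster 13 alone). Neither could be tested in sub-cluster 16.

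The 12 largest falls were less tied to 1 sub-cluster. *Cox4i2*, for an alternative subunit of cytochrome c oxidase, had 16.3, 5.84 and 13.1 CPM against 57.5, 101 and 96.6 (-3.52 ± 0.41, adjusted p = 1.06e-06). *Nupr1*, a stress-responsive chromatin factor gene, had 16.3, 7.0 and 30.6 CPM against 164, 133 and 161 (-3.39 ± 0.36). *Gdf10*, for a ligand of the TGF-beta family, had 0, 9.34 and 21.9 CPM against 109, 132 and 104 (-3.35 ± 0.38). *Atp1b1*, for a beta subunit of the sodium pump, was the most abundant of these with 97.7, 67.7 and 101 CPM against 513, 656 and 696 (-2.93 ± 0.27). All 4 were called in sub-cluster 13 alone, at -4.40, -3.49, -3.19 and -3.03, and in sub-cluster 16 alone, at -1.96, -3.25, -4.63 and -3.14. *Kirrel2*, *Cnr1* (the cannabinoid receptor CB1), *Lhx2*, *Efemp1*, *Adam23*, *Ppp1r3g*, *Nme7* and *Igfbp2* made up the rest, at -2.95 to -2.44. Of these, the calls of *Kirrel2*, *Cnr1*, *Efemp1*, *Adam23*, *Ppp1r3g*, *Nme7* and *Igfbp2* were lost without replicate 2. *Crym*, for a thyroid hormone binding protein typical of striatal astrocytes, is named here after its values were seen, with 423, 266 and 608 CPM against 1725, 2876 and 1435 (-2.25 ± 0.31, adjusted p = 1.05e-05).

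Of 13 tested genes of glutamate, GABA and glycine uptake and metabolism, 4 rose, *Slc6a11* and *Slc6a9* among them, and 1 fell (median 0.18), where 5.55% of all genes were called higher and 3.45% lower. In sub-cluster 13 alone 4 rose and 1 fell, and in sub-cluster 16 alone 2 of 13 rose and 3 fell. Over all genes 3.61% were called higher and 3.39% lower in sub-cluster 13 alone, and 8.07% and 7.21% in sub-cluster 16 alone. *Abat*, for the enzyme that breaks down GABA, had 423, 400 and 363 CPM against 120, 125 and 111 (1.73 ± 0.21, adjusted p = 1.98e-06). *Gldc*, a glycine cleavage gene, fell with 48.8, 26.9 and 61.2 CPM against 132, 106 and 95 (-1.42 ± 0.30), a call lost without replicate 2. The glutamate transporter genes did not pass: *Slc1a2* had 5812, 4864 and 5259 CPM against 4643, 4993 and 4767 (0.14 ± 0.21, adjusted p = 0.769) and *Slc1a3* changed by -0.31 ± 0.22, with a call in sub-cluster 16 alone (-1.24).

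Receptors moved in both directions, 4 up and 3 down of 23 tested (median 0.07), against the same 5.55% and 3.45% of all genes. These shares also stand behind the joint counts of the lists that follow, and not behind counts in sub-cluster 13 or 16 alone. *Gria1*, for an AMPA receptor subunit, had 309, 212 and 114 CPM against 2.74, 10.4 and 16.1 (4.19 ± 0.38, adjusted p = 1.40e-08) and was called in sub-cluster 13 (4.27) and in sub-cluster 16 (3.81). *Adora1*, for the inhibitory adenosine A1 receptor, had 81.4, 56.0 and 70.0 CPM against 12.8, 6.21 and 10.5 (2.86 ± 0.38). *Grm5* and *Adra2a*, for a metabotropic glutamate and an adrenergic receptor, rose from low levels by 3.18 ± 0.77 and 2.41 ± 0.58. *Grm3*, the metabotropic glutamate receptor gene usual in adult astrocytes, went the other way with 32.6, 104 and 83.1 CPM against 276, 266 and 320 (-1.70 ± 0.26, adjusted p = 4.21e-05). *Grin2c* and *Adora2b* fell by 1.24 and 1.10 on the log2 scale, and both calls were lost without replicate 2. Genes of ion and water handling gave 4 rises and 2 falls of 20 (median 0.29). *Kcnj10*, for the potassium channel Kir4.1, had 667, 396 and 376 CPM against 69.3, 78.7 and 72.5 (2.61 ± 0.23, adjusted p = 9.69e-09), with 2.56 in sub-cluster 13 alone and 2.46 in sub-cluster 16 alone. *Kcnj16*, for its partner Kir5.1, changed by 1.75 ± 0.30, and *Kcnd2*, for the A-type channel Kv4.2, by 4.25 ± 0.51 from near 0. *Slc4a4*, for a sodium bicarbonate transporter, had 1986, 1801 and 1662 CPM against 768, 659 and 613 (1.42 ± 0.22), with 1.65 in sub-cluster 13 alone and -0.05 in sub-cluster 16 alone. *Kcnk1*, for the leak channel TWIK1, fell with 212, 183 and 306 CPM against 1045, 868 and 891 (-1.99 ± 0.25), and *Kcnn2* by 1.08. *Aqp4*, the water channel gene, had 667, 626 and 538 CPM against 727, 497 and 541 (0.09 ± 0.23, adjusted p = 0.885), but was called lower in sub-cluster 16 alone (-1.12). The calls of *Slc4a4*, *Kcnj16* and *Kcnn2* were lost without replicate 2.

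Secreted and synapse-related genes split as well. Among 15 tested genes for secreted carriers, proteases and their inhibitors, *Agt*, *Itih3* and *Igfbp5* rose and 4 fell (median -0.61). *Clu*, for the lipid carrier clusterin, had 3663, 4761 and 4874 CPM against 7618, 11263 and 10629 (-1.14 ± 0.21, adjusted p = 4.38e-04). *Htra1*, for a secreted serine protease, had 619, 587 and 805 CPM against 2068, 1390 and 1544 (-1.28 ± 0.23), and *Igfbp2* and *Prss56* fell by 2.44 and 2.19. *Apoe*, the most abundant carrier gene, had 16296, 17142 and 14686 CPM against 31940, 23529 and 19272, without overlap and without a call (-0.61 ± 0.21, adjusted p = 0.0656), and was called lower in sub-cluster 16 alone (-1.29). Of 17 synaptogenic and matricellular genes 2 rose and 4 fell (median 0.02). *Sparcl1*, for the synapse-promoting protein hevin, had 5438, 6114 and 5469 CPM against 2567, 2887 and 2800 (1.04 ± 0.21), with 1.19 in sub-cluster 13 alone and -0.02 in sub-cluster 16 alone, and its call was lost without replicate 2 or replicate 3. *Ptn*, for the growth factor pleiotrophin, had 1140, 1218 and 1571 CPM against 6306, 5587 and 4900 (-2.09 ± 0.24, adjusted p = 5.55e-07). *Chrdl1* (a BMP antagonist that matures synapses), *Gpc6* (a glypican) and *Mertk* (a phagocytic receptor) fell by 2.5, 1.47 and 1.35, and the last 2 calls were lost without replicate 2, as were those of *Clu* and *Htra1*.

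Cholesterol synthesis genes were lower. Of 16 tested, 15 had a negative change, 6 were called lower and 0 higher, with a median of -0.90 against -0.03 over all genes (13 lower and 1 higher at an unadjusted p of at most 0.05, and 4 called lower by DESeq2). *Msmo1*, for a sterol demethylase, had 212, 297 and 258 CPM against 1020, 776 and 977 (-1.77 ± 0.25, adjusted p = 1.35e-05). *Sqle*, for squalene epoxidase, had 32.6, 38.5 and 56.9 CPM against 133, 129 and 116 (-1.51 ± 0.27), and *Fdft1*, for squalene synthase, 48.8, 61.9 and 26.2 against 150, 135 and 152 (-1.48 ± 0.28). *Fdps* and *Idi1* fell by 1.18 and 1.04, and both calls were lost without replicate 2. In sub-cluster 13 alone 6 of 16 were lower (median -0.84), and in sub-cluster 16 alone 6 of 15 (median -2.08). Over all genes 3.39% were called lower in sub-cluster 13 alone (median -0.03) and 7.21% in sub-cluster 16 alone (median -0.29). In glycolysis and glycogen metabolism 2 of 21 rose (median -0.18): *Pygm*, for muscle glycogen phosphorylase, with 147, 107 and 131 CPM against 57.5, 19.7 and 25.8 (2.14 ± 0.28), and *Pfkm*, for a phosphofructokinase, by 1.05 ± 0.21, a call lost without replicate 1 or replicate 2.

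Signalling genes were called in both directions, where 5.55% of all genes were called higher and 3.45% lower. In the Hedgehog pathway 1 of 5 tested genes rose: *Ptch1*, which encodes the receptor and is itself a target of the pathway, had 326, 412 and 346 CPM against 92.1, 89.1 and 82.1 (2.08 ± 0.22, adjusted p = 2.25e-07). It changed by 2.33 in sub-cluster 13 alone and by 0.61 in sub-cluster 16 alone, without a call in the latter. *Gli1*, the other usual target, was too low to test and is named after its values were seen, with 0, 36.2 and 39.4 CPM against 0.912, 2.07 and 1.61. In the Wnt pathway 3 of 14 rose and 3 fell: *Sfrp5*, for a secreted Wnt antagonist, had 114, 65.4 and 101 CPM against 16.4, 5.18 and 4.83 (3.57 ± 0.38), *Dkk3* had 32.6, 38.5 and 65.6 against 156, 212 and 174 (-2.05 ± 0.28), and *Fzd1*, *Fzd3*, *Fzd2* and *Lef1* made up the rest. Of 13 Notch pathway and Id genes, *Heyl* (2.68) and *Jag1* (2.34) rose from low levels, and *Hes5* and *Id3* fell by 1.48 and 1.11. *Hes5*, a Notch target, had 65.1, 389 and 166 CPM against 570, 709 and 511. The calls of *Dkk3*, *Fzd2*, *Fzd3*, *Lef1*, *Jag1* and *Id3* were lost without replicate 2.

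*Gfap*, the intermediate filament gene of fibrous and reactive astrocytes, had 423, 191 and 140 CPM against 10.0, 20.7 and 29.0 (3.37 ± 0.34, adjusted p = 7.76e-08), and 3.40 and 3.03 in sub-clusters 13 and 16 alone. *Serpina3n*, a reactive gene, also rose (1.94 ± 0.63), while *Vim*, another filament gene, and *S100a6* fell by 1.63 and 1.04, and these last 3 calls were lost without replicate 2. These are 2 rises and 2 falls among 5 tested filament and reactive genes. Of 7 tested white matter and fibrous astrocyte genes 3 rose (*Gfap*, *Serpina3n* and *Igfbp5*) and 3 fell (*Vim*, *S100a6* and *Id3*). *Olig1*, for a factor of the oligodendrocyte lineage that is also found in some astrocytes, had 293, 188 and 184 CPM against 28.3, 30.0 and 24.2 (2.92 ± 0.24, adjusted p = 4.08e-09), and *Olig2* rose by 3.12 ± 0.51. Both were the tested members of 5 oligodendrocyte precursor markers. They also account, with *Sparc*, for 3 rises among the 9 tested immature genes that the study names, where *Hes5* and *Id3* fell. Of the 9 mature genes it names, 0 were called by edgeR or DESeq2 in the joint comparison (median 0.02, with 2 at an unadjusted p of at most 0.05). In sub-cluster 16 alone 4 of the 9, *Apoe*, *Gjb6*, *Slc1a3* and *Aqp4*, were called lower (median -0.72). There 7.21% of all genes were called lower, and the median gene changed by -0.29. In sub-cluster 13 alone 0 of the 9 mature genes were called by edgeR (median -0.16, with 3 at an unadjusted p of at most 0.05). The study chose these lists and its maturation factors on this series, so they are no independent evidence of a direction. Of 6 maturation factors it names, *Lhx2*, *Fezf2* and *Rorb* fell. *Rorb* had 293, 523 and 634 CPM against 1047, 1056 and 1193 (-1.17 ± 0.24), a call lost without replicate 1 or replicate 2. *Egfr* and *Sox4* rose by 1.17 and 1.86 among 3 tested stem and progenitor markers, and the call of *Egfr* was lost without replicate 2 or replicate 3 and that of *Sox4* without replicate 3.

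Lists of cadherins (9 tested), axon guidance genes (8), metallothioneins (3) and mitochondrially encoded genes (13) gave 0 calls each in the joint comparison by edgeR and by DESeq2, with 2, 3, 1 and 0 members at an unadjusted edgeR p of at most 0.05. In sub-cluster 16 alone, where 7.21% of all genes were called lower, 4 of 9 cadherins (*Cdh11*, *Cdh10*, *Cdh2* and *Pcdh10*, at -2.34 to -1.09) and *Mt2* of the metallothioneins (-1.11) were. In sub-cluster 13 alone *Cdh20* was called higher (1.17) and the axon guidance gene *Ephb1* lower (-1.99), against 3.61% and 3.39% of all genes. *Jun* fell by 1.22 of 2 tested immediate early genes. Markers of other cells were given for both sides. The 8 oligodendrocyte markers summed to 24176, 4036 and 3264 CPM against 378, 514 and 424, with 7 of 7 tested called higher, and they took over 0.5% of UMIs in 105 of 121 cells of sub-cluster 16, 12 of 202 of sub-cluster 13 and 8 of 788 on the other side. Sub-cluster 13 alone also had 5 of 5 tested oligodendrocyte markers called higher, at 1.12 to 2.33, where 3.61% of all genes were. The oligodendrocyte markers summed there to 1733 CPM against 464 in sub-cluster 7 and 375 in sub-cluster 14. Their part in the changes of either sub-cluster was not tested. Microglia markers summed to 97.7, 65.4 and 4.37 CPM against 7.25 to 9.32, and neuron markers to 130, 44.4 and 61.2 against 13.5 to 31.4, with *Snap25* called higher (3.13 ± 0.52). Cycling markers were at 0 on the first side and endothelial markers at 1.17 CPM or less. *Pdgfrb*, of 6 mural cell markers, fell by 1.09, a call lost without replicate 2 or replicate 3, and *Rarres2*, of 6 ependymal ones, was not called. The 8 astrocyte markers summed to 14782, 13872 and 13685 CPM against 15456, 15520 and 14905. In replicate 1 the sum of the first side lay below that of its oligodendrocyte markers, so the labelled cell type held for sub-clusters 7, 14 and 13 and less clearly for sub-cluster 16. Without cells over the oligodendrocyte limit 460 genes were called, 237 higher and 223 lower. Of the joint calls that could be tested there, 198 of 361 higher and 198 of 264 lower ones were kept. Of 104 named genes tested there, which include some without a joint call, 10 lost their call. *Agt*, *Sparc*, *Itih3*, *Slc6a11*, *Lhx2*, *Kcnj10*, *Gria1*, *Ptch1* and *Gfap* were among those that kept their calls.

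At P3 the study set sub-clusters 3, 4, 5, 10, 12 and 15 with non-telencephalic cells and sub-clusters 0, 1, 9 and 11 with telencephalic ones, which gave 3006 and 3768 cells in 3 libraries. The same genes did not mark the same sides at both ages. At P3 *Agt*, *Slc6a11*, *Slc6a9*, *Nkx2-2*, *Lhx2* and *Fezf2* differed against the direction of the non-telencephalic label. *Nkx6-2* and *Mfge8* differed in its direction. Whether the sides hold the same regions at both ages was not tested. *Agt* had 1.67, 5.20 and 4.72 CPM in the first P3 side and 99.9, 138 and 112 in the second, a change of -4.80 ± 0.16, opposite to 3.77 at 3 months in the same model. The difference of the side differences was 8.57 ± 0.22 (edgeR, 10150 genes, adjusted p = 3.21e-22). *Slc6a11*, with 113, 102 and 161 CPM against 492, 424 and 518 at P3, and *Slc6a9*, with 22.6, 20.8 and 28.3 against 109, 113 and 131, also turned, by 4.52 ± 0.21 and 5.23 ± 0.23. *Sparc* and *Itih3* changed by 0.55 and 0.72 at P3, under the fold threshold. *Lhx2* was higher in the first side at P3, with 210, 234 and 254 CPM against 102, 103 and 124 (difference -3.88 ± 0.23), and *Fezf2* changed by 3.74 there (difference -7.50 ± 0.63). *Nkx2-2* turned from -3.00 at P3 to 2.31, while *Nkx6-2* was higher in the first side at both ages, by 3.88 and 2.51. *Mfge8* changed by -1.17 at P3, close to its -0.97 at 3 months (difference 0.20 ± 0.24, adjusted p = 0.606).

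Outside the regional lists the sides also turned for *Ptch1* (-1.03 at P3, 2.01 at 3 months), *Olig1* (-2.88 and 2.81) and *Slc4a4* (-1.67 and 1.32). *Kcnj10* changed by -0.91 at P3, which missed the fold threshold, and by 2.47 at 3 months. *Ptn* was lower on the first side at both ages, by 0.83 and 2.18 on the log2 scale, and *Atp1b1* changed by -0.20 at P3 and -3.08 at 3 months. Of 24 regional and maturation genes tested at both ages, 16 differed between ages by the test. Over all genes 1707 of 10150 (16.8%) differed between ages, and 1515 (14.9%) were called at P3. Age, maturation and the composition of the sides cannot be told apart in this comparison.

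**Figure D5:**
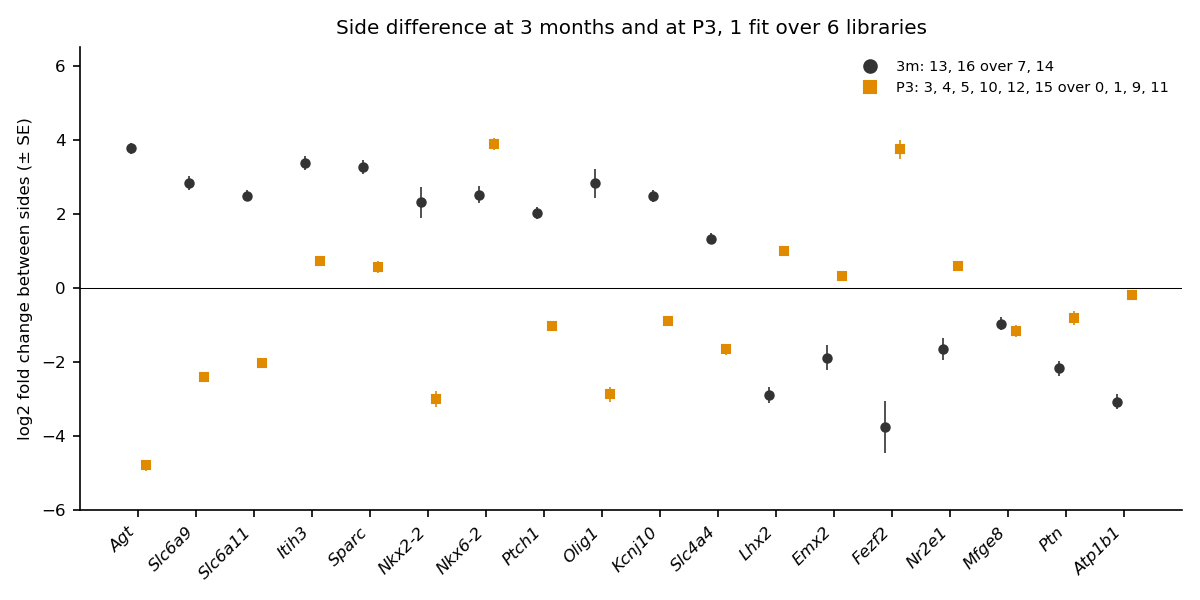
Log2 fold change between sides (± SE) at 3 months (dark circles, sub-clusters 13 and 16 over 7 and 14) and at P3 (orange squares, sub-clusters 3, 4, 5, 10, 12 and 15 over 0, 1, 9 and 11) from 1 model over 6 libraries. *Agt*, *Slc6a9*, *Slc6a11*, *Nkx2-2* and *Olig1* lie on opposite sides of 0 at the 2 ages, as does *Fezf2* the other way round, while *Nkx6-2* lies above and *Mfge8* and *Ptn* below 0 at both.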

How the data were processed

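Single-cell RNA-seq of striatal cells was analysed from the deposited gene by cell matrices of UMI counts, which the authors made with Cell Ranger on mm10 and filtered with Seurat to keep cells above 500 detected genes with a mitochondrial share below 10%. The deposited cell annotation gave the sub-clusters. The Seurat version is 3.1.1 in the submitters' processing notes. Doublets were not removed further. Counts of the named sub-clusters were summed per library and side and tested with edgeR 4.0.16 in R 4.3.3 (quasi-likelihood test, TMM scaling, filterByExpr, library as a block, Benjamini-Hochberg over all genes tested). Calls needed 0.05 or less after adjustment together with a log2 change of 1 or more either way. Each SE was derived from the fit, as the absolute log2 change over the square root of the F statistic of the test. Both sides of a library come from the same preparation, which is the source of the pairing. Summed depth was 61425 to 1242120 UMIs, and intervals on shares cover counting error only. Ages were compared with an interaction term over 12 sums. In the split-UMI check, cells were clustered with scanpy 1.11.5 on a random part (0.5) of the UMIs. DESeq2 1.42.0 and the other settings are given in the closing section.

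The tests were tried on simulated data with known changes. The members and gene lists were chosen with earlier results of these data known. Named genes are the regional and maturation lists, the 12 largest calls each way with no overlap and at least 50 CPM on the higher side, up to 5 called members of each other list, the 5 largest age differences each way and cell type markers. *Crym*, *Gli1* and *Malat1* were chosen after their values were seen, as were genes that lead a sub-cluster and list members called in sub-cluster 13 or 16 alone. Some genes of the lists are counted but not reported by name here.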

Additional observations from a re-analysis of the deposited data

Results flagged for a closer look

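Groups of 3 libraries are too small for the test of a single library that stands apart. The results below were picked out because the difference between sides differed between 3 months and P3 by the interaction term of the edgeR model, with an adjusted p of at most 0.05 and a difference of at least 1. Each value is the log2 change at 3 months minus that at P3.

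Among regional genes the value was positive for *Agt* (8.57 ± 0.22), *Nkx2-2* (5.32), *Slc6a9* (5.23), *Slc6a11* (4.52), *Dbx2* (3.06), *Sparc* (2.70) and *Itih3* (2.65). It was negative for *Nkx6-2* (-1.37), *Emx2* (-2.21), *Nr2e1* (-2.23), *Lhx2* (-3.88), *Fezf2* (-7.50) and *Gsx2* (-8.97). *Dbx2*, for a homeodomain factor, changed by -3.69 at P3, with 8.36, 7.81 and 17.4 CPM against 122, 149 and 147, and by -0.63 at 3 months.

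The largest other differences upward were those of *Psd* (7.39), *Grm5* (7.08), *Kcnd2* (7.05) and *Arpp21* (6.98). *Grm5* had 9.20, 5.37 and 24.7 CPM on the first side at P3 against 243, 189 and 198, and *Arpp21* had 1.67, 0.813 and 2.64 against 22.9, 29.5 and 26.5. The largest downward were *Pifo* (-13.30), *Csrp2* (-9.92), *Anxa2* (-9.44), *C1ql3* (-9.30) and *Ptx3* (-8.76). *C1ql3*, for a secreted synaptic protein, had 50.2, 79.7 and 54.7 CPM against 0.764, 0.726 and 1.47 at P3 and 0, 0 and 13.1 against 18.2, 33.1 and 20.1 at 3 months. *Pifo*, *Csrp2*, *Anxa2*, *Ptx3* and *Gsx2* had 0 UMIs in sub-clusters 13 and 16 at 3 months, so their fitted values depend on the model's prior count and are no bounds.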

How the results depend on the processing

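Counts of calls between sub-clusters 13 and 16 and sub-clusters 7 and 14 moved by more than 1.5 times from 701 under 7 settings: DESeq2 (424, 296 higher and 128 lower), thinning both sides of each library to the smaller total (415, of 3296 genes tested), the stricter cell filter of over 1000 genes and under 5% mitochondrial UMIs (137, 100 higher and 37 lower, of 1562 tested), leaving out cells over the oligodendrocyte marker limit (460, 237 higher and 223 lower) or, chosen after seeing the data, cells with *Malat1* under 3% of UMIs (458), sub-cluster 14 alone as the comparison (40, of 2134 tested), and leaving out replicate 2. Leaving out each replicate gave 217 to 789 calls, with 187 higher and 30 lower without replicate 2 at the low end. Other scalings gave 724 and 737, no filter 775, sub-cluster 7 alone as the comparison 589, sub-cluster 13 alone 516 and, chosen after seeing the data, 607 without replicate 1. Calls were higher in 61.6% of cases in the main comparison and in 51.6% for sub-cluster 13 alone, 51.5% without oligodendrocyte-marker cells, 69.8% by DESeq2, 73.0% under the stricter filter and 86.2% without replicate 2. The fit without the replicate block gave 790 calls and ended the calls of 4 of 110 named genes (*Id3*, *S100a6*, *Idi1* and *Pfkm*). No gene called in the main comparison was called the opposite way under any setting. *Slc4a4* (-0.0457) and *Sparcl1* (-0.0175) changed sign in sub-cluster 16 alone. DESeq2 ended the calls of 18 of 110 named genes, among them *Emx2*, *Nr2e1*, *Egfr*, *Vim*, *Gldc*, *Grin2c* and *Gpc6*, and leaving out replicate 2 ended 38 of 108. These totals of named genes include some without a call in the main comparison, such as *Six3* and *Slc1a2*, which had no call to lose. A second random split of the UMIs gave 427 calls against 478. The age comparison gave 1141 (without 3-month replicate 2) to 1742 calls on leaving out 1 library, and 1613 without the replicate block. The mean share of sub-clusters 13 and 16 over libraries was 23.1%, and 10.8% to 30.6% on leaving out 1 library. The causes were not tested. Depth limited sub-cluster 16 and replicate 1 most, and with 17 cells on 1 side small changes of low genes were not detectable there.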

Other observations

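Sub-cluster 16 also carried RNA of genes best known from neurons, which were chosen after their values were seen. *Pcp4*, for a calmodulin-binding peptide of striatal and other neurons, had 1690, 967 and 1260 CPM in replicates 1 to 3 of sub-cluster 16 and 305, 70.6 and 56.3 in sub-cluster 13, against 64.0 in sub-cluster 7 and 59.3 in oligodendrocytes (3.88 ± 0.35 for sub-cluster 16 over 13, edgeR adjusted p = 4.42e-26). *Nrgn*, for the postsynaptic protein neurogranin, had 572, 396 and 810 CPM in sub-cluster 16 and 43.5, 41.2 and 41.0 in sub-cluster 13, against 31.3 in sub-cluster 7 and 27.4 in oligodendrocytes (3.78 ± 0.41). Of the 1430 genes tested between these sub-clusters, 32.3% were called. The source of the *Pcp4* and *Nrgn* RNA was not tested.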
